A study of Homo sapiens with 16 samples.

Results

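The genes described here encode the nuclear subunits and NDUFAF assembly factors of respiratory complex I. They are the protein-coding genes whose symbols begin with NDUFA, NDUFB, NDUFC, NDUFS or NDUFV, and 48 of the 58051 gene identifiers in the table met that rule. Of the 48, 37 are complex I subunits (7 core and 30 supernumerary) and 8 are the assembly factors NDUFAF1 to NDUFAF8. NDUFA4 and NDUFA4L2 carry the name but are placed outside complex I in current structures, and NDUFC2-KCTD14 is a readthrough of neighbouring genes. RNA was measured in P493-6, an immortalised human B cell line that carries a doxycycline-repressible MYC transgene and an estrogen-dependent viral regulator, EBNA2. The study asked how inhibition of N-myristoyltransferase, the enzyme that attaches myristate to N-terminal glycines, plays out at different MYC levels. High MYC cells grew in plain medium, and medium MYC cells were given doxycycline at 0.1 ug/mL together with beta-estradiol at 1 uM from 24 h before treatment. Each received DMSO or 100 nM IMP1088, the N-myristoyltransferase inhibitor, for 24 h, which gave 4 groups of 4 libraries. MYC level, doxycycline and estradiol therefore changed together and cannot be told apart. No label says whether the 4 libraries of a group came from separate cultures, so p-values measure only the spread between these libraries, which may be technical.

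Complex I oxidises NADH and passes the electrons to ubiquinone while pumping protons across the inner mitochondrial membrane. Its matrix arm holds the N module, where NADH is oxidised, and the Q module, where ubiquinone is reduced, and its membrane arm is built from a proximal and a distal part. Assembly factors help the modules form and join, and are not kept in the finished enzyme. NDUFAF4 works with NDUFAF3 on the Q module and is N-myristoylated, as is NDUFB7, a subunit of the distal membrane arm. The coding starts below show where a glycine codon follows the start codon directly, which is what N-myristoyltransferase requires once the first methionine is removed. They are the first 30 coding bases of the principal GENCODE 29 transcript on GRCh38, 5′ to 3′, with a glycine codon in that place in capitals. NDUFAF4 lies on the minus strand at chr6:96897772-96897801, NDUFB7 on the minus strand at chr19:14571971-14572000 and NDUFAF2 on the plus strand at chr5:60945256-60945285. NDUFAF3, on the plus strand at chr3:49022145-49022174, is shown for contrast.
NDUFAF4: atgGGAgcactagtgattcgcggtatcagg
NDUFB7: atgGGGgcccacctggtccggcgctacctg
NDUFAF2: atgGGTtggtctcaggatttgttccgcgcc
NDUFAF3: atggccaccgctctcgcgctacgtagcttg
These 3 were the members with a glycine codon there, 3 of 48, against 1520 of 19547 coding genes (7.78%) in the same annotation. A glycine codon is a property of the sequence and was not read as a sign of myristoylation.

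The libraries held between 8755296 and 13858534 reads. MYC RNA, which includes the transgene, stood at 31649 ± 2130 normalized counts in high MYC controls and 959 ± 48.7 in medium MYC controls (SD, n = 4). With the inhibitor it stood at 47542 ± 505 and 1382 ± 51.2. All 7 B cell markers were detected in every group, with summed levels of 33847 to 42582 at high MYC and 55544 to 65497 at medium MYC. The summed T cell, myeloid and epithelial lists ranged from 43.1 to 290.5, and 2 of 4 T cell genes and 2 of 4 myeloid genes had a mean of at least 10 in each group. Of the 4 epithelial genes 1 did at high MYC and 2 did at medium MYC. EPCAM stood at 62.1 ± 7.04 in high MYC controls and 13.1 ± 5.56 in medium MYC controls, and CDH1 at 0.19 ± 0.38 and 55.4 ± 8.04. The erythroid list reached at most 11.5, and HBB, KRT18 and DCN were listed at 0 throughout. The 3 fibroblast genes summed to between 4.4 and 19.4 at high MYC and between 155.9 and 221.4 at medium MYC. COL1A1 made up most of this sum, at 7.09 ± 2.35 in high MYC controls and 164 ± 9.24 in medium MYC controls. The myeloid list summed to 107.5 to 135.6 at high MYC and 247.0 to 290.5 at medium MYC. Their part in the differences by MYC level was not tested.

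Of the 48 genes, 46 reached a mean of at least 10 normalized counts over the 16 libraries and were tested. NDUFA4L2 ran from 0 to 6.6 normalized counts and NDUFC2-KCTD14 from 0 to 1.1, and neither was tested. Subunit mRNAs had higher median levels than those of the assembly factors. Per kilobase of the principal transcript, the median subunit stood at 465.3 normalized counts in high MYC controls (range 75.0 to 1317), and the median NDUFAF gene at 127.8 (29.8 to 457.6). In medium MYC controls the medians were 460.7 and 99.0. Per kilobase of coding sequence the high MYC medians were 1076 and 307.2. These values still count reads from the untranslated ends, so the part of those ends in the order was not tested. NDUFAF2 was the most abundant assembly factor per kilobase of transcript in high MYC controls. These levels are not normalised for which transcript of a gene was used.

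Assembly factor mRNAs stood lower where MYC was lower. In medium MYC controls 7 of the 8 NDUFAF mRNAs were lower than in high MYC controls, and none was higher, by limma at an adjusted p under 0.05. Their median log2 difference was -0.50, against 0.02 for all tested genes. Of all tested genes 37.3% were called lower and 38.9% higher in this comparison, so a call by itself was common.

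NDUFAF2, a factor that binds late assembly intermediates, differed most. Its normalized counts were 302.8, 333.5, 327.8 and 352.1 in the high MYC controls and 96.0, 102.7, 110.3 and 102.6 in the medium MYC controls. Every medium MYC library lay far below every high MYC library. The difference was 3.18-fold, a log2 change of -1.67 (SE 0.07, adjusted p = 3.65e-15), and it kept its call under all 33 alternative settings. NDUFAF4, the myristoylated Q module factor, had 215.4, 188.7, 157.8 and 209.0 normalized counts at high MYC and 89.7, 81.3, 79.6 and 90.3 at medium MYC. Its groups did not overlap either, and the difference was 2.23-fold, a log2 change of -1.16 (SE 0.13, adjusted p = 4.01e-08). It too kept its call under all 33 settings. NDUFAF3, which works with NDUFAF4, was lower by much less. Its level was 255 ± 21.6 at high MYC and 207 ± 7.44 at medium MYC (SD, n = 4), a log2 change of -0.30 (SE 0.09, adjusted p = 0.00419).

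The remaining factors showed smaller differences in the same direction. NDUFAF8, a small partner of NDUFAF5, stood at 125 ± 9.68 and 81.1 ± 13.7 normalized counts (log2 change -0.63, adjusted p = 0.000105). NDUFAF7, an arginine methyltransferase, stood at 327 ± 11.7 and 223 ± 9.87 (log2 change -0.55, adjusted p = 1.65e-07). NDUFAF5, which hydroxylates NDUFS7, changed by -0.45 (adjusted p = 0.000179) and NDUFAF6 by -0.44 (adjusted p = 0.00034). In these 4 the groups did not overlap. NDUFAF1, a factor of the membrane arm intermediate, did not pass: it had 118 ± 11.4 and 102 ± 8.31 normalized counts, a log2 difference of -0.20 (95% interval -0.42 to 0.01, adjusted p = 0.0788). With the GC correction it was called lower. Exons of NDUFAF7 overlap CEBPZ and PRKD3 on the other strand, which changed by -0.73 and 0.69, and those of NDUFAF3 overlap DALRD3, which changed by -0.36. Whether strand was used in counting is not given in the sources used here, so those values are uncertain by an unknown share.

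**Figure D1:**
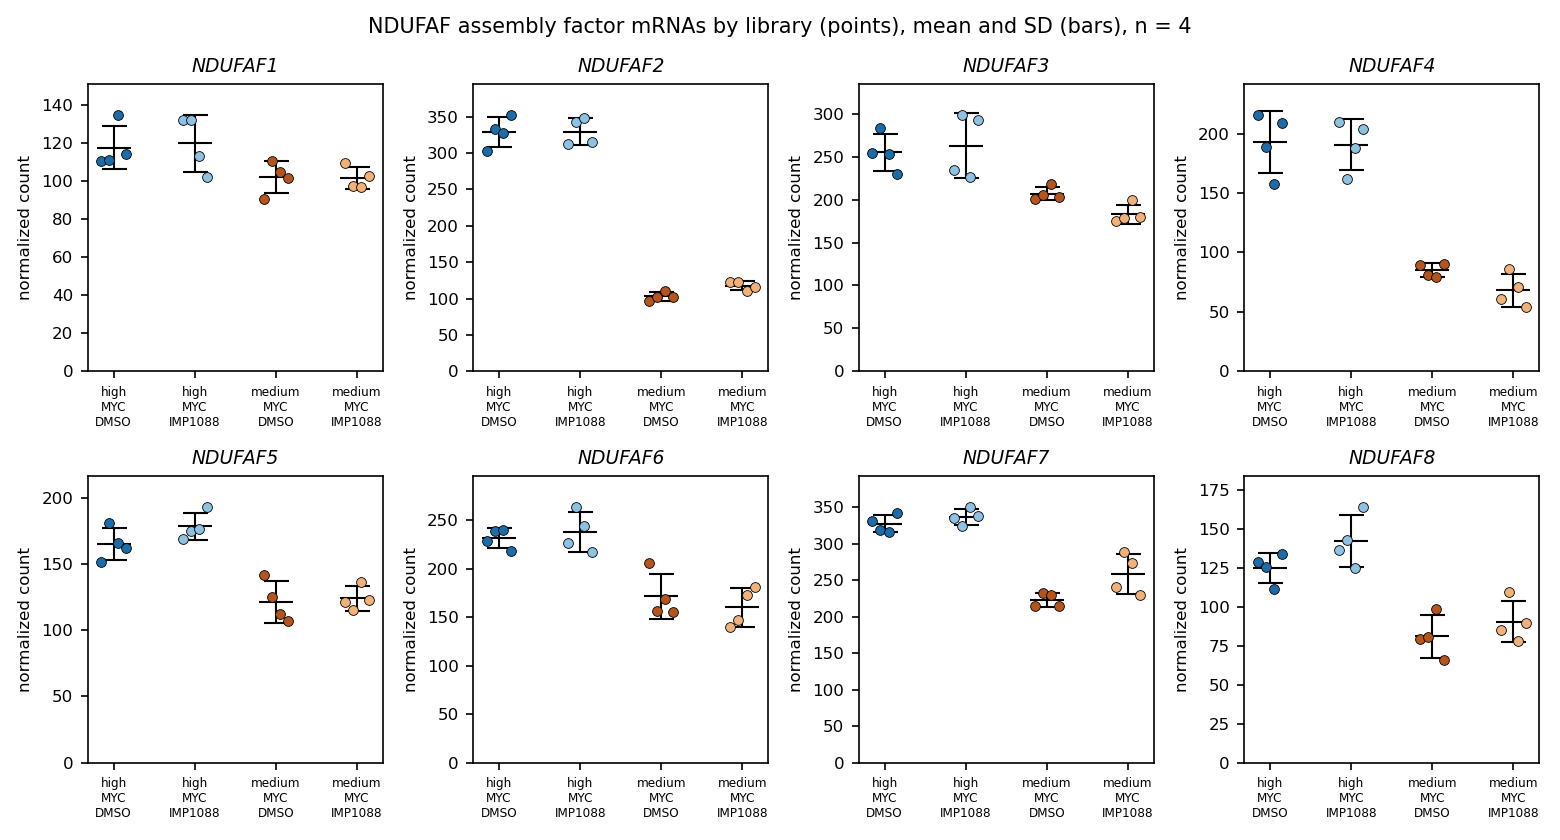
Normalized counts (vertical axes, linear from 0) of NDUFAF1 to NDUFAF8 in each library (points) of the 4 groups, with the group mean and SD (bars, n = 4). NDUFAF2 and NDUFAF4 show a wide gap between the high and medium MYC groups, whereas NDUFAF1 lies close together in all groups.

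Most subunit mRNAs were lower at medium MYC as well. Of 37 subunits, 21 were called lower and 6 higher, with a median log2 difference of -0.27. Over all 46 tested NDUF genes 28 were lower and 6 higher, so 73.9% were called in either direction against 76.2% of all tested genes. The share called was thus near the background, and the direction was what differed: 60.9% were lower against 37.3%. The 2 groups of controls did not overlap for 31 of 46 genes (67.4%), near the 69.2% of all tested genes. With a correction for the GC content of genes the split was 37 lower and 2 higher, and this correction moved the median of all tested genes from 0.017 to -0.095. A correction for transcript length moved that median to -0.106 and gave 32 lower and 6 higher. Subunit and NDUFAF medians with the GC correction were -0.345 and -0.61, so both stayed below the shifted median.

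Among the 7 core subunits, which carry the redox centres and the quinone site, 5 were lower at medium MYC and none was higher. NDUFV2, an iron-sulfur protein of the N module, stood at 1036, 1130, 1026 and 1098 normalized counts in high MYC controls and at 740.6, 782.5, 679.1 and 749.2 in medium MYC controls. The groups were well apart (log2 change -0.54, SE 0.05, adjusted p = 5.57e-10). NDUFS3 of the Q module changed by -0.42 (adjusted p = 6.6e-08). NDUFS1, the largest subunit, changed by -0.38 (adjusted p = 6.94e-09). NDUFS7, which holds the last iron-sulfur cluster before ubiquinone, changed by -0.34 (adjusted p = 0.000147), and NDUFV1, the NADH-binding subunit, by -0.32 (adjusted p = 4.28e-07). NDUFS8, an iron-sulfur protein of the Q module, did not pass the test, at 414 ± 37.4 and 389 ± 34.3 (adjusted p = 0.242), but was called lower with the GC or the length correction. NDUFV1 changed by -0.485 with the GC correction and NDUFS1 by -0.604 with the length correction. NDUFS1, NDUFS3, NDUFS7, NDUFV1 and NDUFV2 each share exon sequence with another annotated gene, so part of their counts may not be theirs. The genes that overlap NDUFV1 reached at most 3.3 normalized counts, and the gene that overlaps NDUFV2 stood at 0 in every library. EEF1B2, a translation elongation factor gene on the other strand of NDUFS1, was the more abundant of the pair, at 6407 ± 92.6 and 2181 ± 38.6 normalized counts against 1893 ± 74.9 and 1451 ± 34.9 for NDUFS1. EEF1B2 changed by -1.55. On the other strand of NDUFS7, ENSG00000248015 changed by -1.84, from 71.4 ± 9.60 to 19.2 ± 3.59. NDUFS3 overlaps CELF1 and KBTBD4 on the other strand and PTPMT1 on its own, which changed by -0.50, 0.41 and -0.46.

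The supernumerary subunits, which surround the core, moved in both directions, with 16 of 30 lower (53.3%) and 6 higher (20%). Counts by module, which take in the core subunits, were not compared by a test. Of 10 N module subunits 5 were lower and 4 higher, of 6 in the Q module 3 were lower and none higher. In the proximal membrane arm 6 of 9 were lower and 1 was higher, and in the distal arm 6 of 11 were lower and 1 was higher. The 6 higher subunits thus included 4 of the N module. That is 40% of the module, near the 38.9% of all tested genes called higher. Called lower were 50% of the N module and 50% of the Q module, beside 37.3% of all tested genes. In the proximal arm 66.7% were lower, and in the distal arm 54.5%. The acyl carrier protein NDUFAB1, present in both arms, was lower, with a log2 change of -0.65 (adjusted p = 1.03e-08). NDUFC2, a proximal arm subunit, differed most among the subunits. Its normalized counts were 489.6, 503.1, 463.5 and 475.0 at high MYC and 267.0, 300.5, 301.9 and 316.8 at medium MYC. The log2 change was -0.70 (SE 0.05, adjusted p = 9.36e-11), and the groups did not overlap. NDUFB10, NDUFS6, NDUFB6, NDUFA7 and NDUFS5 changed by between -0.69 and -0.51. NDUFA7, at 261 ± 41.1 and 180 ± 29.6, overlaps the ribosomal protein gene RPS28 on the other strand, which stood at 3841 ± 286 and 2308 ± 206 and changed by -0.74. NDUFB7, the myristoylated subunit, stood at 316 ± 32.0 and 247 ± 40.6, a log2 change of -0.36 (adjusted p = 0.00142), and 1 medium MYC library lay within the high MYC range. With the length correction it changed by -0.214 (adjusted p = 0.0275).

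The 6 subunits that were higher at medium MYC differed by less. NDUFA6, an accessory subunit of the N module, had 662.8, 697.4, 656.7 and 634.8 normalized counts at high MYC and 818.8, 738.0, 834.9 and 835.4 at medium MYC. All 4 medium MYC libraries lay above all 4 high MYC libraries (log2 change 0.28, SE 0.05, adjusted p = 3.52e-05). NDUFB1, of the distal arm, changed by 0.25 (adjusted p = 0.00672). NDUFA1, of the proximal arm, changed by 0.17 (adjusted p = 0.0131), but with the GC correction its value was -0.03 (adjusted p = 0.616), and without medium MYC control replicate 4 the adjusted p was 0.0509. NDUFA2, NDUFV3 and NDUFA12 changed by 0.14 each and lost their call under several settings. NDUFA6 and NDUFB1 kept theirs under all 33, though with the GC correction NDUFA6 changed by 0.123 only (adjusted p = 0.0215). Exons of NDUFA6 overlap its divergent transcript NDUFA6-DT, at a mean of 21.8 normalized counts in high MYC controls and 48.6 in medium MYC controls.

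**Figure D2:**
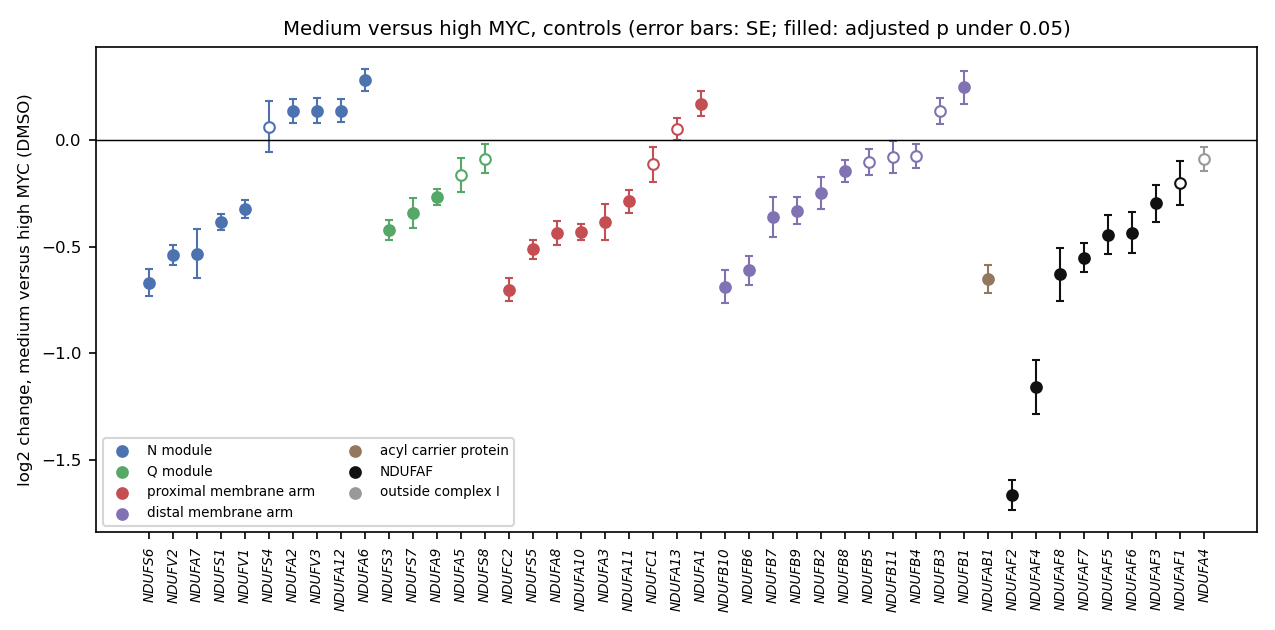
Log2 difference between medium and high MYC controls (vertical axis) for 45 of the 46 tested genes, grouped by module and ordered by value within it. Bars are the SE, and filled points have an adjusted p under 0.05 in limma. NDUFAF2 at -1.67 and NDUFAF4 at -1.16 lie below all other genes, and 5 of the 9 points above 0 are N module subunits. Those are 5 of the 10 N module subunits, beside 7031 of all 13765 tested genes above 0.

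MYC binds the E-box CACGTG with its partner MAX, so the promoters of these genes were searched for it, and also for motifs of factors known for respiratory genes. RefSeq promoters on GRCh38.p14, from 250 bases before to 50 after the start of transcription, were matched for 40 of the 48 genes. Both strands were read, and CACGTG is the same on both. It occurred in a promoter of 3 of 32 subunit genes (9.38%) and of 1 of 7 NDUFAF genes (14.3%), against 1727 of 15842 protein-coding genes (10.9%). These shares were near the background. A gene with several listed promoters was counted once, if any of them matched, here and for the motifs below. The windows of all 4 genes with a match are printed. All 4 were lower at medium MYC, with log2 changes of -0.29 for NDUFA11, -0.53 for NDUFA7, -0.34 for NDUFS7 and -0.45 for NDUFAF5. Of the 46 tested NDUF genes 28 were lower (60.9%), these 4 among them. Whether the E-box had a part in this was not tested. Capitals mark the E-box, and each window reads 5′ to 3′ on the gene's strand: chr19:5903905-5903934 (minus), chr19:8321478-8321507 (minus), chr19:1383708-1383737 (plus) and chr20:13784890-13784919 (plus).
NDUFA11: ggcctggggatgCACGTGctactctcttcc
NDUFA7: gcggagaggagtCACGTGcttcggggagag
NDUFS7: acccgcggccccCACGTGcgcactccgatg
NDUFAF5: cctaccaagcctCACGTGgggctcacaccc
The E-box begins 132, 120, 187 and 126 bases before the start of transcription in that order. Among tested genes with a promoter in the table, 588 of 1219 with CACGTG were called lower at medium MYC (48.2%) and 2954 of 8118 without it (36.4%). Called higher were 425 (34.9%) and 3516 (43.3%) of them in that order.

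NDUFAF2 and NDUFAF4, the members that differed most, had no CACGTG in that window. Their 250 bases upstream are shown for that reason, NDUFAF2 from chr5:60944955-60945204 (plus strand) and NDUFAF4 from chr6:96897892-96898141 (minus strand). Capitals mark the ETS motif CCGGAAG (reverse complement CTTCCGG).
NDUFAF2: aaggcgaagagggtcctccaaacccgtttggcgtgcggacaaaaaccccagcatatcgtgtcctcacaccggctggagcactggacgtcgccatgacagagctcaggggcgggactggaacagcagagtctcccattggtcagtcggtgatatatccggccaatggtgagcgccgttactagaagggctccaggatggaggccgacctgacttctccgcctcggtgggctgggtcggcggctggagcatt
NDUFAF4: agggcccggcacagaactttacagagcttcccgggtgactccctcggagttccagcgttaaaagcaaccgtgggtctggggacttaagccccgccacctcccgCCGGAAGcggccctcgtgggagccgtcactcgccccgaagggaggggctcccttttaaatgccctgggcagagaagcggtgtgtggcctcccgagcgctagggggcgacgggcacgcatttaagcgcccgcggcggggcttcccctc
The ETS motif was found in promoters of 5 of 32 subunit genes (15.6%) and 2 of 7 NDUFAF genes (28.6%), against 16.5% of all protein-coding genes. The NRF1 palindrome, GCGCA followed directly by its reverse complement TGCGC, was in promoters of NDUFA8, NDUFB4 and NDUFAF5, and of 1.99% of all protein-coding genes. The letters AAGATGG (reverse complement CCATCTT) are a core of the YY1 motif. They were in promoters of 9 of 32 subunit genes (28.1%) and 1 of 7 NDUFAF genes, against 7.9% of all protein-coding genes. AAGATGG lay over the start codon in NDUFA3, NDUFA6, NDUFA7, NDUFA9, NDUFA12, NDUFB8, NDUFS4 and NDUFS7, after the start of transcription. The ATG of those letters was the start codon itself. How common such matches are among all promoters was not counted. Each match describes the letters in the window and is not a shown binding site.

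Few complex I mRNAs were called with the inhibitor, and those called were mostly lower. At high MYC 5 subunits were lower and 1 was higher, 6 of 46 tested NDUF genes (13%), against 26.8% of all tested genes, of which 16.3% were lower and 10.5% higher. At medium MYC 7 subunits were lower and NDUFAF7 was higher, 8 of 46 (17.4%), against 26.3% of all tested genes, of which 14.6% were lower and 11.7% higher. Both shares were below the background. Called lower were 10.9% of the 46 at high MYC, below the background, and 15.2% at medium MYC, near it. Called higher were 2.17% at each level, below the background. At an unadjusted p under 0.05 in limma were 14 of 46 at high MYC and 16 of 46 at medium MYC. That share was not counted over all tested genes. The treated and control groups did not overlap for 6 of 46 genes at high MYC (26.7% of all tested genes) and 7 of 46 at medium MYC (27.9%). Among subunits the median log2 change was -0.089 at high MYC and -0.095 at medium MYC, against -0.02 and -0.01 for all tested genes. Below 0 were 32 of 37 subunits at high MYC and 29 at medium MYC, against 7464 and 7070 of 13765 tested genes. Subunit medians stayed below 0 under every setting, between -0.10 and -0.045 at high MYC and between -0.104 and -0.065 at medium MYC. Quantile normalization gave 3 lower and 2 higher at high MYC, and equal library totals gave 4 lower and 3 higher at medium MYC.

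NDUFA13, a proximal arm subunit also known as GRIM-19, responded most. At high MYC its normalized counts were 820.9, 855.8, 830.0 and 805.8 with DMSO and 520.5, 573.4, 610.9 and 553.0 with the inhibitor. At medium MYC they were 805.3, 834.7, 925.9 and 868.2 with DMSO and 512.6, 565.2, 534.8 and 512.2 with the inhibitor. The treated libraries lay well below the controls at both MYC levels, and the controls were not shown to differ between the levels (log2 difference 0.05, adjusted p = 0.381). The log2 change was -0.55 at high MYC (SE 0.05, adjusted p = 5.27e-08) and -0.69 at medium MYC (SE 0.05, adjusted p = 1.45e-09). These are 1.47-fold and 1.61-fold lower. Both calls held under all 33 settings.

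NDUFA13, at chr19:19515736-19529054 on the plus strand of GRCh38, shares exons with 2 genes on the same strand. One is YJEFN3, at 92.3 ± 5.52 normalized counts with DMSO and 86.0 ± 4.97 with the inhibitor at high MYC, and at 113 ± 12.6 and 88.7 ± 14.2 at medium MYC (SD, n = 4). YJEFN3 was called lower at medium MYC (log2 change -0.36, adjusted p = 0.024) and not at high MYC (-0.10, adjusted p = 0.571). The other, ENSG00000258674, had 26.8 ± 7.04 and 17.6 ± 1.76 at high MYC and 27.3 ± 6.98 and 21.5 ± 6.28 at medium MYC, and was called in neither. Both stood far below NDUFA13. How reads in the shared exons were divided was not tested.

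NDUFB5, a subunit of the distal arm, was lower at both MYC levels too. Its counts at high MYC were 473.0, 518.8, 571.7 and 545.4 with DMSO and 449.5, 414.8, 451.2 and 413.7 with the inhibitor. At medium MYC they were 492.3, 518.8, 452.5 and 498.1 against 410.1, 358.6, 369.7 and 383.2. No treated library reached the lowest control at either level. The log2 changes were -0.28 (SE 0.06, adjusted p = 0.00136) and -0.37 (SE 0.06, adjusted p = 9.55e-05). NDUFA6 had 517.3, 539.1, 597.8 and 549.9 normalized counts with the inhibitor at high MYC and 697.9, 743.0, 719.6 and 677.6 at medium MYC. Set against the control values above, the groups did not overlap at high MYC, and at medium MYC 1 treated library exceeded the lowest control. NDUFA6 changed by -0.27 (adjusted p = 0.000413) and -0.18 (adjusted p = 0.00928). It was thus lower with the inhibitor and higher at medium MYC, and these comparisons share control libraries.

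Smaller changes were seen in other supernumerary subunits. None of the 7 core subunits was called at either MYC level by limma, edgeR or DESeq2, with 2 of 7 at an unadjusted p under 0.05 in limma at each level. With GC correction NDUFV2 was called lower at high MYC, and over genes with a mean of at least 100 NDUFV1 was called lower at medium MYC. NDUFS6, an N module subunit needed for its attachment, changed by -0.19 at both levels (adjusted p = 0.0311 and 0.0312). NDUFA8 passed at high MYC (-0.17, adjusted p = 0.0357) and not at medium MYC (-0.08, adjusted p = 0.326). NDUFB4, NDUFB9 and NDUFS5 passed at medium MYC and not at high MYC, and none of these differences between levels was called. NDUFB4 stood at 478 ± 20.7 and 415 ± 34.0 there (log2 change -0.20, adjusted p = 0.00869) and at 504 ± 23.3 and 456 ± 15.2 at high MYC (-0.14, adjusted p = 0.0641). NDUFB9 changed by -0.185 (adjusted p = 0.0354) and NDUFS5 by -0.14 (adjusted p = 0.0197) at medium MYC. The calls of NDUFS6, NDUFA8, NDUFB9 and NDUFS5 were each lost when some single libraries were left out. NDUFA10, a proximal arm subunit related to nucleoside kinases, was higher at high MYC. It had 1467, 1531, 1447 and 1542 normalized counts with DMSO and 1653, 1580, 1646 and 1679 with the inhibitor at high MYC. Every treated library was above every control (log2 change 0.13, SE 0.04, adjusted p = 0.00836), and the call held under all 33 settings. At medium MYC it stood at 1110 ± 33.5 and 1110 ± 39.5.

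**Figure D3:**
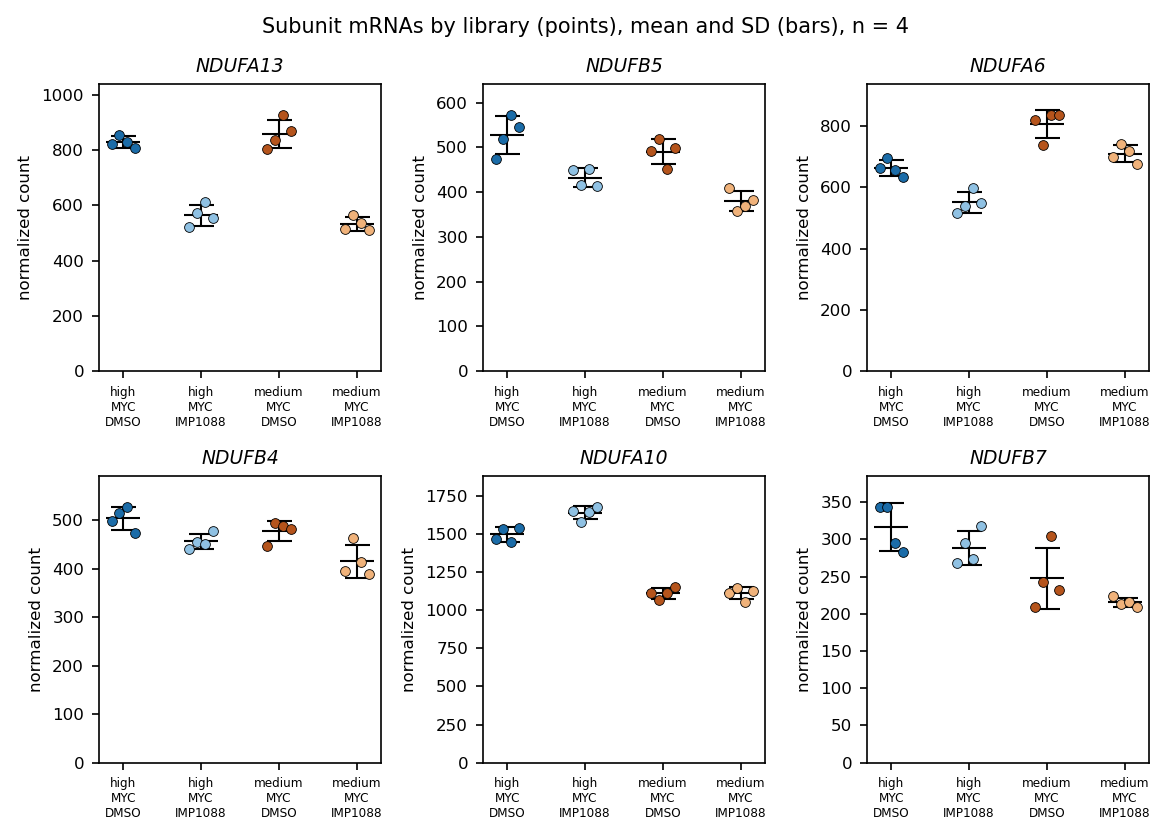
Normalized counts (vertical axes, linear from 0) of 6 subunits in each library (points) of the 4 groups, with the group mean and SD (bars, n = 4). NDUFA13 drops with IMP1088 at both MYC levels without overlap, and NDUFA10 is higher with IMP1088 at high MYC.

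Of the 8 assembly factors 7 had a log2 change above 0 with the inhibitor at high MYC, and 4 did at medium MYC. Whether they moved together was not tested. At high MYC none of the 8 passed the test, and their log2 changes ran from -0.01 to 0.18 with a median of 0.04. No NDUFAF gene had an unadjusted p under 0.05 there, and edgeR and DESeq2 called none either. At medium MYC they ran from -0.34 to 0.21 with a median of 0.02, and that median fell between -0.01 and 0.05 across settings. NDUFAF7 was higher there, with 214.9, 232.9, 230.2 and 214.2 normalized counts with DMSO and 241.2, 289.1, 273.6 and 229.9 with the inhibitor. One treated library lay within the control range. The log2 change was 0.21 (SE 0.07, adjusted p = 0.0257). The call was lost with GC correction (0.0844), in a fit of the compared groups only (0.0635), and without medium MYC control replicate 1 (0.0675) or 4 (0.0713) or medium MYC inhibitor replicate 2 (0.112) or 3 (0.083). NDUFAF2 stood at 103 ± 5.85 and 118 ± 6.30 at medium MYC (log2 difference 0.19, adjusted p = 0.0502) and at 329 ± 20.3 and 329 ± 18.7 at high MYC. At medium MYC it was called higher with equal library totals, median-of-ratios or TMM factors, quantile normalization, a pseudocount of 0.1, a mean of at least 100 or no trend. It was also called without high MYC control replicate 1, medium MYC control replicate 3 or medium MYC inhibitor replicate 3.

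NDUFAF4, whose protein is a substrate of the inhibited enzyme, gave no call at either MYC level. At high MYC its inhibitor libraries had 209.7, 161.9, 187.6 and 203.7 normalized counts, within the range of the controls (log2 difference -0.01, 95% interval -0.28 to 0.26, adjusted p = 0.963). At medium MYC they had 60.6, 86.4, 71.0 and 54.4, against 79.6 to 90.3 in the controls. Of the 4 treated libraries 3 were below all controls (log2 difference -0.34, 95% interval -0.61 to -0.07, adjusted p = 0.0569). Without medium MYC inhibitor replicate 2 the adjusted p was 0.00889, without high MYC control replicate 3 it was 0.0441, with the GC correction it was 0.0262, and over genes with a mean of at least 100 it was 0.0436. NDUFB7 did not pass either, with log2 differences of -0.13 (95% interval -0.32 to 0.07, adjusted p = 0.341) and -0.185 (-0.38 to 0.01, adjusted p = 0.156). At medium MYC its adjusted p was 0.0469 without medium MYC control replicate 1 and 0.0234 with the length correction. These values are of mRNA and do not bear on the myristoylation of the proteins.

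**Figure D4:**
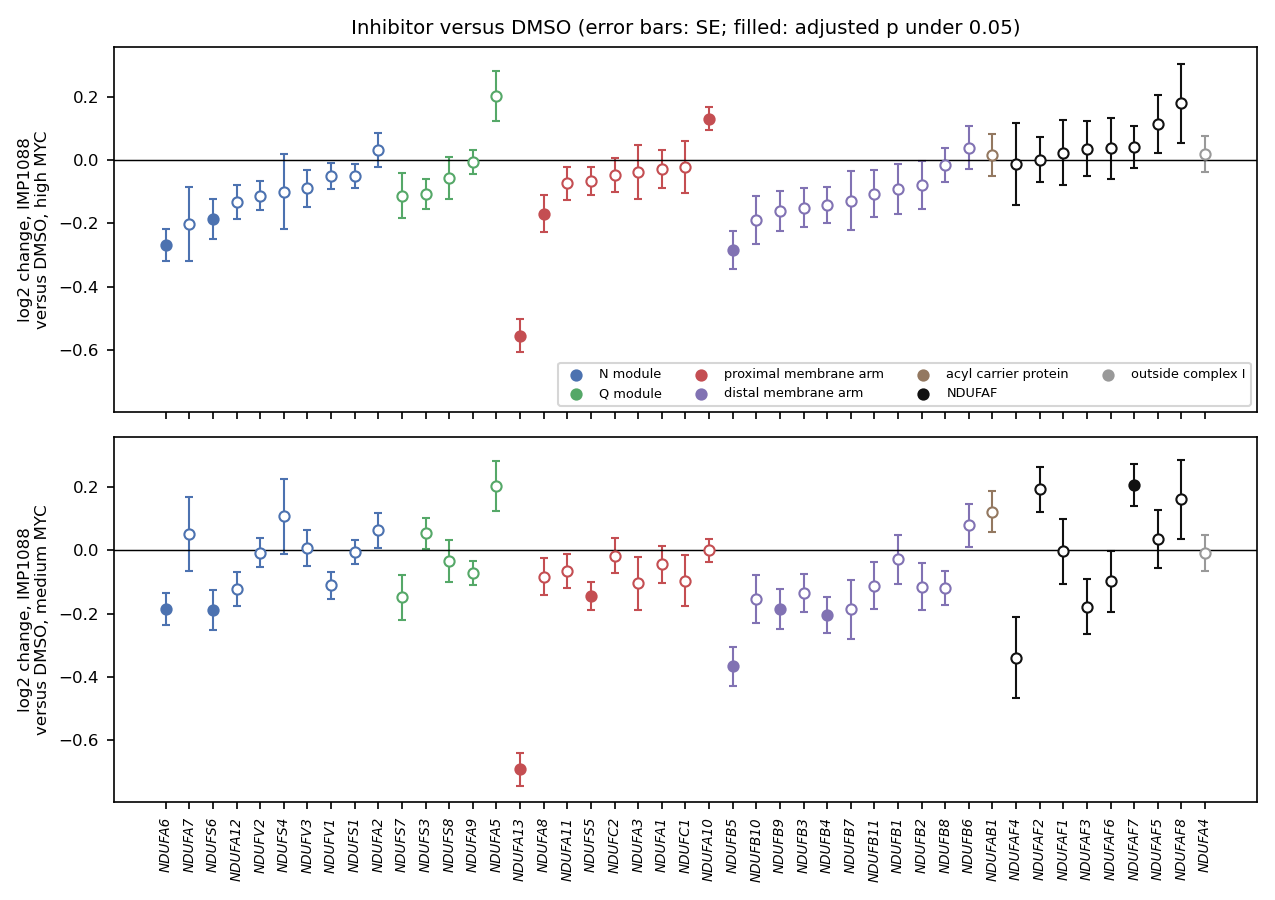
Log2 change with the inhibitor against DMSO (vertical axes) for 45 of the 46 tested genes at high MYC (upper panel) and medium MYC (lower panel), in the same order in both. Bars are the SE, and filled points have an adjusted p under 0.05 in limma. NDUFA13 is the lowest in both panels. Of the 8 NDUFAF genes (black) 7 lie above 0 at high MYC, and 4 do at medium MYC.

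The response to the inhibitor was not shown to differ between the MYC levels for any of the 46 genes. With limma none was called at an adjusted p under 0.05, against 8.63% of all tested genes (3.31% with the higher value at high MYC and 5.33% with the lower), and 2 of 46 (NDUFA10 and NDUFS3) had an unadjusted p under 0.05. edgeR and DESeq2 also called none, with 2 and 1 at an unadjusted p under 0.05. The difference, as the log2 change at high MYC minus that at medium MYC, was widest for NDUFAF4 at 0.33 (95% interval -0.05 to 0.705, adjusted p = 0.317). For NDUFA10 it was 0.13 (0.03 to 0.24, adjusted p = 0.12), and with GC correction it was called. For NDUFA13 it was 0.14 (-0.02 to 0.29, adjusted p = 0.293), and for NDUFAF7 it was -0.16 (-0.36 to 0.03, adjusted p = 0.34). The intervals leave room for differences of modest size, so alike responses were not shown.

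Related genes were read from lists of the same pathway, beside 37.3% of all tested genes called lower and 38.9% called higher at medium MYC. The 7 complex I subunits encoded by mitochondrial DNA were all lower at medium MYC, from -0.845 for MT-ND1 to -0.28 for MT-ND3, and limma called none with the inhibitor at either level. At high MYC 2 of the 7 had an unadjusted p under 0.05 in limma and edgeR called 1, and at medium MYC none did in limma, edgeR or DESeq2. Of 13 other assembly factors 9 were lower (69.2%) and 2 higher at medium MYC (median -0.49). DMAC1 changed by -1.14, TMEM186 by -0.997 and TMEM70, which helps build the membrane arm, by -0.996, whereas COA1 changed by 0.50. Among 14 mitochondrial iron-sulfur cluster genes, which supply the cofactors of the N and Q modules, 8 were lower (57.1%) and 3 higher. ISCA1 changed by -1.14 and FDXR by 0.71. Of 9 regulators of respiratory genes 8 were tested, with 5 lower (62.5%) and 1 higher. PPRC1, a growth-linked coactivator, changed by -1.34 and TFAM, which maintains mitochondrial DNA, by -0.97 (limma, adjusted p = 3.88e-17 and 1.34e-12).

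With the inhibitor 28.6% of the 14 iron-sulfur cluster genes were called at high MYC, near the 26.8% of all tested genes. At medium MYC 35.7% were called, against 26.3% of all tested genes. At high MYC 3 of 14 were higher (21.4%) and 1 was lower, against 10.5% and 16.3% of all tested genes, and at medium MYC 4 were higher (28.6%) and 1 was lower, against 11.7% and 14.6%. ISCU, the scaffold on which clusters are built, changed by 0.155 at high MYC and 0.40 at medium MYC (limma, adjusted p = 0.0145 and 9.3e-07). FDXR, the reductase that supplies electrons for cluster assembly, changed by 0.22 and 0.30 (adjusted p = 0.0428 and 0.00629). ISCA1 and the chaperone HSPA9 passed at medium MYC, with changes of 0.32 and 0.145, and HSCB at high MYC, with 0.34. NFU1 was lower at high MYC (-0.37) and LYRM4 at medium MYC (-0.23). The other assembly factors had 2 of 13 lower and none higher at high MYC, and 1 in each direction at medium MYC. Of the 8 regulators 1, GABPB1, was higher at high MYC (0.23), and limma called none at medium MYC, with 2 of 8 at an unadjusted p under 0.05. Medians for the other assembly factors, iron-sulfur cluster genes and regulators were -0.025, 0.031 and 0.031 at high MYC and 0.054, 0.065 and 0.061 at medium MYC, against -0.02 and -0.01 for all tested genes. NDUFA4, a subunit assigned to cytochrome c oxidase, was called in no comparison by limma, although the GC and length corrections each called it lower at medium MYC. It had 987 ± 111 and 995 ± 22.6 normalized counts at high MYC and 924 ± 45.7 and 919 ± 38.3 at medium MYC.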

How the data were processed

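RNA-seq of 16 libraries was analysed. The authors deposited a table of normalized counts, a non-negative signal per Ensembl gene. Per the submitters' processing notes, which give no roles, STAR 2.5.2a, RSEM 1.2.31, DESeq2 1.16.1 and GRCh38 were used; strand use is not given in the sources used here. Within each library 100% of values were whole multiples of a single step (relative tolerance 1e-06), so whole reads were recovered, 8755296 to 13858534 per library; whether these were rounded estimates is not known. For 2 libraries the step was close to 1. Gene symbols matched 56948 identifiers, and GENCODE 29 matched 57447.

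limma 3.58.1 in R 4.3.3 was fitted to log2(normalized count + 1) for 13765 genes with a mean of at least 10, with 4 group means, a mean trend and Benjamini-Hochberg adjustment over all tested genes, two-sided, at 0.05. Log2 changes understate those of low genes. The comparisons were inhibitor against DMSO at each MYC level, the difference of these responses, and medium against high MYC in DMSO; they share control libraries. Alternatives were other scalings, pseudocounts of 0.1 and 10, other filters, no trend, the compared groups only, a replicate block, each library left out, and count tests of the recovered reads (DESeq2 1.42.0, edgeR 4.0.16). edgeR called 3703, 3858, 1219 and 10556 genes in the 4 comparisons in that order. GC and transcript length corrections were chosen after seeing the data. Fits were tested on simulated data with changes planted in the high MYC inhibitor group only. Recovery of differences by MYC level was thus not tested.

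Named by rule were NDUFAF1 to NDUFAF8, NDUFB7, the 7 core subunits, and for each comparison the 3 called genes with the largest rise and fall among those with a mean of at least 50; other members are named to account for counts. Some genes the rule selects are not reported here. Genes, lists and modules were chosen with earlier results of these data known. Exon overlaps with other genes were found for 27 of the 48 genes, and 21 have named pseudogenes, at a mean of at most 5.68 normalized counts. Coding starts come from GENCODE 29 and promoters from RefSeq.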

Additional observations from a re-analysis of the deposited data

Results flagged for a closer look

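Over the 4 groups of each of 23 genes, 92 in all, 5 had a library that stood apart from the other 3 of its group; chance marks about 1 group in 20. NDUFA6 was lowest, at 738.0 normalized counts, in medium MYC control replicate 2. NDUFAF1 was highest, at 134.6, in high MYC control replicate 3. NDUFB1 was lowest, at 217.3, in high MYC inhibitor replicate 4. NDUFS1 was lowest, at 1781.2, in high MYC control replicate 1. NDUFV2 was lowest, at 922.8, in high MYC inhibitor replicate 2. No library was marked for more than 1 gene.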

How the results depend on the processing

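Counts of complex I genes called depended on the settings mainly where changes were small. At high MYC the 1 gene higher with the inhibitor became 2, by the gain of NDUFA5, with quantile normalization, edgeR, DESeq2, the length correction, and GC or length correction with the replicate block. The 5 lower became 3 with equal library totals, quantile normalization or no filter. At medium MYC the 1 higher became 3 with equal totals, quantile normalization or a mean of at least 100, 2 with median-of-ratios or TMM factors, a pseudocount of 0.1, no trend or length correction with and without the block, and 0 with the compared groups only or GC correction. The 7 lower became 4 with equal totals and 11 with GC correction or with length correction, with and without the block for the latter. For the difference in response, GC correction called 1 gene, NDUFA10. Of the 6 genes higher at medium MYC, DESeq2 called 3, and GC correction called 2 with and without the block. NDUFA1 there changed sign to -0.033 with both. The 28 lower at medium MYC stayed within 1.5 times, and 27 of them were called in all 33 alternatives.

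Leaving out 1 library gave 1 to 2 higher and 3 to 7 lower at high MYC, 0 to 3 higher and 5 to 8 lower at medium MYC, 0 for the difference, and 3 to 6 higher and 27 to 31 lower at medium against high MYC. NDUFA5 was gained at high MYC without high MYC control replicate 3 or medium MYC control replicate 3. NDUFA8 and NDUFS6 were lost without high MYC inhibitor replicate 1. NDUFA1, NDUFA2 and NDUFV3 were lost without medium MYC control replicate 4. At medium MYC NDUFA5 or NDUFAF2 were gained without high MYC control replicate 1 or 3, medium MYC control replicate 2 or 3, or medium MYC inhibitor replicate 3.

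No label says what the replicate numbers share, and correlations of same-numbered deviations ran from -0.154 to 0.239, so no pairing was assumed. With the replicate block 2 genes were called higher at each MYC level with the inhibitor, by the gain of NDUFA5, and 5 and 6 lower.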
